A study of Mus musculus with 14 samples.

Results

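Bach2, Bach1, Nfe2, Nfe2l1, Nfe2l2, Mafk and Mafg, 7 of the 25832 gene IDs in the MARS-Seq tables, encode the BACH repressors, the NF-E2 related activators and a pair of their small Maf partners. In MARS-Seq, single cells are sorted into wells and each RNA molecule is counted once through a unique molecular identifier (UMI). The series holds 14 samples of mouse bone marrow haematopoietic stem cells (HSCs), of which the 4 MARS-Seq plates, 350W to 353W, were used here. Each plate held 96 wells of KO cells, in wells 97 to 192, and 96 wells of WT cells, in wells 1 to 96. KO stands for animals without Phf19, a Polycomb-associated protein, per the series' design text, which names floxed animals as its controls. The sources used here do not say whether the WT cells came from floxed animals, what deleted the gene or how old the animals were. All cells came from lineage-depleted marrow and were labelled CD150+CD48-, with no treatment named. The genotype of a cell was read from its name in the count tables, since the labels give the plates none, so genotype and well position cannot be told apart. The members were selected on a fall of Bach2 in these same KO cells, so Bach2 is described here without a test, and the question asked of the other 6 was whether they fell with it.

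These proteins are basic leucine zipper factors. The BACH and NF-E2 related ones are of the cap 'n' collar type, and each of them binds DNA as a dimer with a small Maf protein, such as Mafk or Mafg, at related sites known as Maf recognition elements and antioxidant response elements. Bach1 and Bach2 repress through these sites, while Nfe2, Nfe2l1 and Nfe2l2 activate. Bach2 is known for restraining myeloid genes in lymphoid progenitors and plasma cell genes in B cells, Bach1 for holding down heme oxygenase until heme releases it, and Nfe2 for platelet formation.

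Cells with 500 or more UMIs numbered 335 for KO and 381 for WT, and 49 KO wells and 3 WT wells fell below that limit. UMI totals per plate and genotype ran from 220821 to 510791. The median cell held 2230 to 4484 UMIs in KO and 2920 to 5006 UMIs in WT, with KO lower in all 4 plates. Phf19 itself had 0, 2, 1 and 0 UMIs in KO cells and 1, 0, 0 and 5 UMIs in WT cells of plates 350W to 353W, too few for a check of the labels. The HSC transcription factor gene Hlf had 158 to 406 CPM (counts per 1000000 UMIs of the summed cells) in KO and 208 to 372 CPM in WT, and none of the 12 HSC marker genes was at 0 in every sum. Slamf1, the gene of the CD150 marker used in the sort, had 4.51, 16.0, 4.53 and 0 CPM in KO and 12.8, 40.6, 0 and 0 CPM in WT, and Fgd5 was at 0 in both genotypes of 352W. Plates 352W and 353W stood apart in both genotypes. There the myeloperoxidase gene Mpo had 158 and 196 CPM in KO and 205 and 192 CPM in WT, against 0 in 350W and 351W. Cd48, the gene of the marker that the sort was to exclude, had 222 CPM in KO and 195 CPM in WT cells of plate 352W. In 353W it had 28.8 CPM in KO and 47.0 CPM in WT, and in 350W and 351W 4.51 CPM or less in either genotype. Values are therefore also given for 350W and 351W alone. The labels tie no plate to an animal, so a p-value here speaks for the spread between plates, which may be technical.

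Bach2 was the most abundant member in WT cells and one of the scarce ones in KO cells. In plates 350W, 351W, 352W and 353W its summed count was 7, 9, 1 and 14 UMIs in KO cells, against 117, 110, 60 and 137 UMIs in WT cells. These counts gave 31.6, 28.8, 4.53 and 36.6 CPM in KO cells, against 375, 279, 189 and 268 CPM in WT cells. The mean was 25.4 ± 14.3 CPM in KO and 278 ± 76.3 CPM in WT (SD, n = 4 plates each). Every KO value lay below every WT value, and the lowest of both genotypes came from plate 352W. The KO over WT ratio of the summed CPM was 0.0986 (exact 95% interval 0.0662 to 0.142, which covers counting error only), and it was 0.0931 in plates 350W and 351W alone. Single plates gave 0.0842, 0.103, 0.0240 and 0.137, the third resting on 1 UMI in KO. In the model across all genes (edgeR, plate as a block) the log2 fold change of Bach2 was -3.35 (SE 0.238). Bach2 passed the filter on low counts only through its WT sums.

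**Figure D1:**
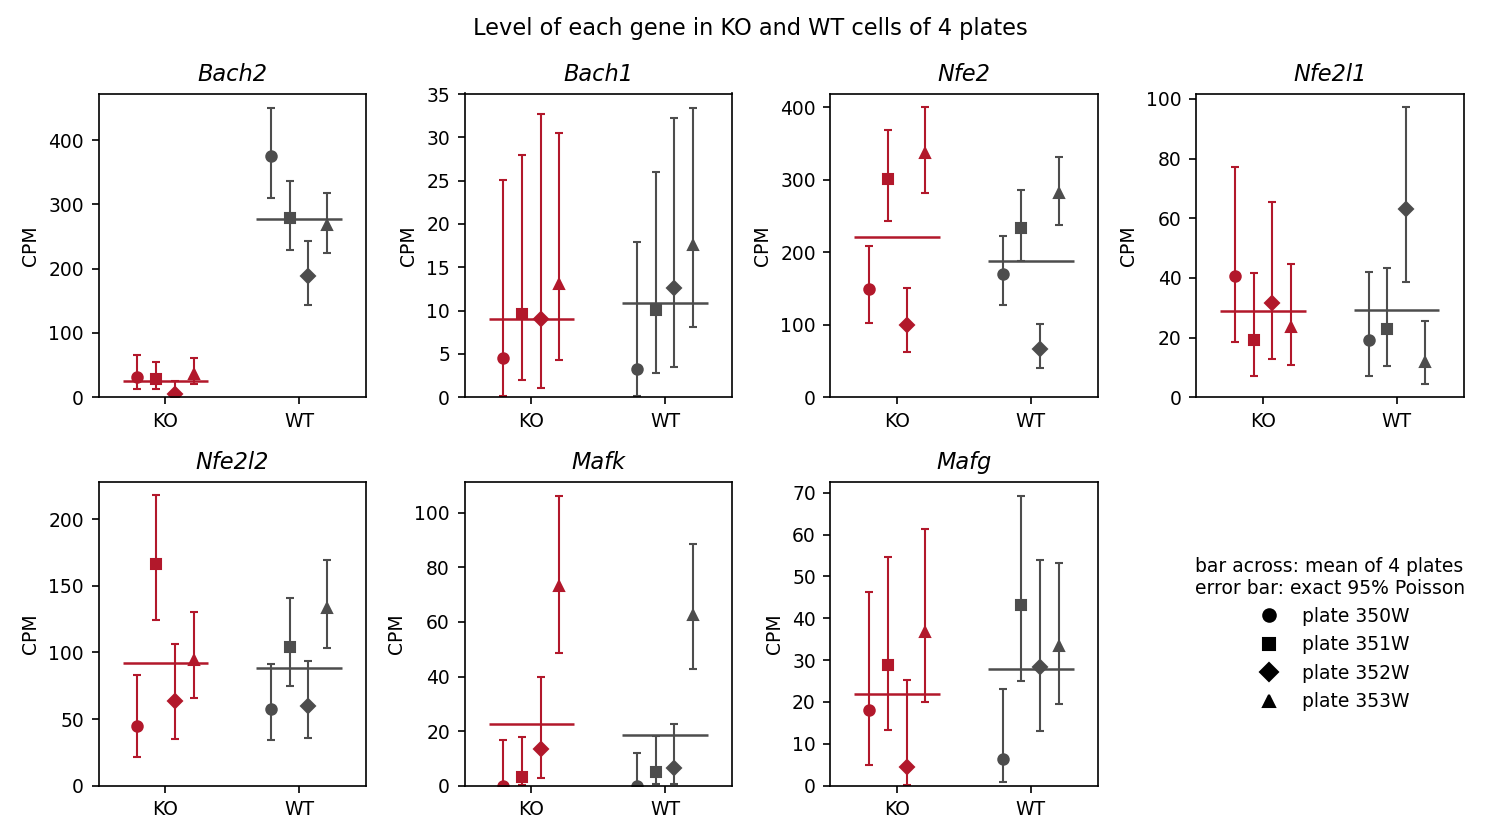
Level of each of the 7 genes in CPM (vertical axis, linear, starting at 0, a scale of its own for each gene) in KO and WT cells of the 4 plates, with exact 95% Poisson intervals of counting and a bar at the mean. For Bach2 the KO values, 4.53 to 36.6 CPM, lie below the WT values, 189 to 375 CPM, while KO and WT values overlap for the other 6 genes.

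The fall showed in the number of cells with a Bach2 molecule and in the number of molecules per cell. At least 1 Bach2 UMI was found in 26 of 335 KO cells (7.76%) and in 152 of 381 WT cells (39.9%). By plate the share was 6.52, 7.87, 1.35 and 15.0% of KO cells, against 46.3, 40.6, 23.2 and 49.5% of WT cells. KO cells were shallower, so the share expected after thinning each cell to 1000 UMIs was also computed, leaving out 18 KO and 4 WT cells below that depth. The thinned share was 2.51, 2.40, 0.703 and 3.38% of KO cells, against 26.6, 20.7, 12.3 and 21.5% of WT cells, again with every KO value below every WT value. No KO cell held more than 2 Bach2 UMIs, while 72 WT cells held 3 or more and the highest held 8. Among cells with any Bach2 UMI, 0% of KO cells and 47.4% of WT cells held 3 or more. No cell type known to lack Bach2 was sorted beside these cells, so the share that free RNA could give was not measured.

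**Figure D2:**
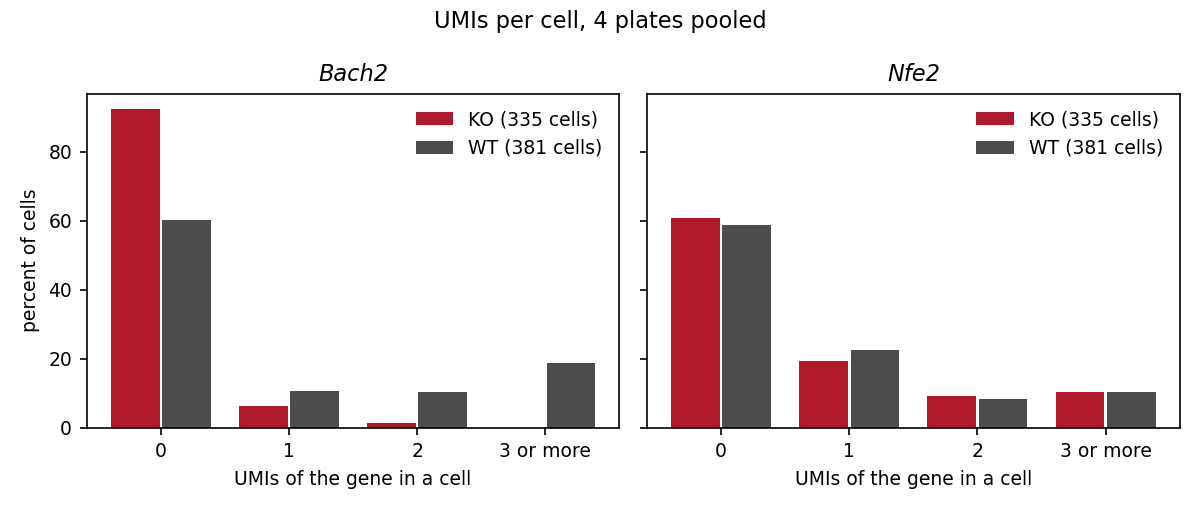
Percent of KO and WT cells (vertical axis, from 0) with 0, 1, 2, or 3 or more UMIs of Bach2 (left) and Nfe2 (right), with the 4 plates pooled. For Bach2, 309 of 335 KO cells and 229 of 381 WT cells had none, and for Nfe2, 204 of 335 KO cells and 224 of 381 WT cells had none.

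Because KO and WT cells lay in separate well ranges of each plate, Bach2 was followed across blocks of 24 wells. Summed over plates, the 4 KO blocks from well 97 upward had 19.5, 25.5, 21.3 and 44.0 CPM, and the 4 WT blocks from well 1 upward had 314, 220, 293 and 282 CPM. The KO block of the lowest well numbers was the lowest of the KO blocks, and the WT block of the highest well numbers was at 282 CPM. These values cannot tell genotype from position. Nfe2 over the same blocks had 231, 211, 284 and 253 CPM in KO and 185, 188, 169 and 271 CPM in WT. The wells left out for low totals held 0 Bach2 UMIs, so the cell filter moved none of its counts.

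**Figure D3:**
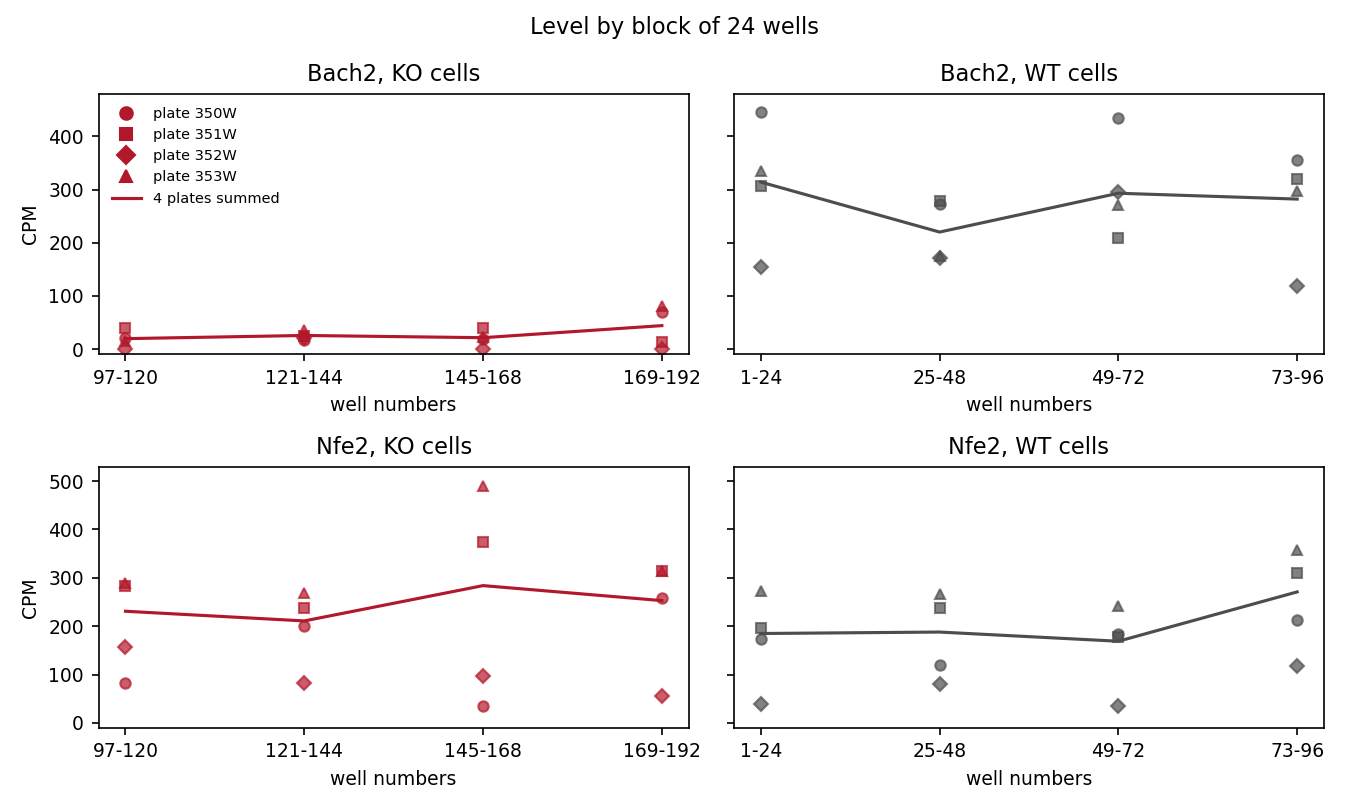
CPM of Bach2 (top) and Nfe2 (bottom) in consecutive blocks of 24 wells (horizontal axis), for KO cells at left and WT cells at right, with points for the plates and a line for the sum of the 4 plates. The Bach2 line stays between 19.5 and 44.0 CPM over the KO wells and between 220 and 314 CPM over the WT wells.

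Bach1, the repressor most like Bach2 in structure, was close to the limit of detection. It had 1, 3, 2 and 5 UMIs in KO cells, against 1, 4, 4 and 9 UMIs in WT cells of the 4 plates. That is 9.06 ± 3.52 CPM in KO and 10.9 ± 5.99 CPM in WT (SD, n = 4 plates each), and the groups overlapped. The KO over WT ratio was 0.824 with an exact 95% interval of 0.352 to 1.84. A change of Bach1 within this interval was not detectable at this depth. The ratio was 1.06 in plates 350W and 351W alone, on 4 KO and 5 WT UMIs.

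Nfe2, the blood-specific activator of the family, was somewhat higher on average in KO and was not called. It had 33, 94, 22 and 129 UMIs in KO cells, against 53, 92, 21 and 144 UMIs in WT cells. In CPM this was 149, 301, 99.6 and 337 in KO and 170, 233, 66.1 and 282 in WT. The mean was 222 ± 115 CPM in KO and 188 ± 93.2 CPM in WT (SD, n = 4 plates each), and KO was the higher in 3 of 4 plates. Plates differed more than genotypes, with 352W lowest and 353W highest in both. The log2 fold change was 0.25 (SE 0.152, 95% interval -0.05 to 0.54, edgeR adjusted p = 0.839). The ratio of summed CPM was 1.21 with a counting interval of 1.03 to 1.43, which leaves out the spread between plates. The ratio was 1.16 in plates 350W and 351W alone. An Nfe2 UMI was found in 18.5, 49.4, 18.9 and 70.0% of KO cells and in 36.8, 42.7, 15.8 and 69.5% of WT cells, a mean difference of -1.99 ± 11.2 percentage points (SD, n = 4 plates, two-sided exact sign-flip permutation p = 1). After thinning, the share was 2.53 ± 4.89 percentage points higher in KO (SD, n = 4 plates, two-sided exact sign-flip permutation p = 0.375, where the smallest p that 4 plates allow is 2 of 16 sign patterns).

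Nfe2l2, which encodes Nrf2, the activator of antioxidant genes, had no common direction over plates. Its counts were 10, 52, 14 and 36 UMIs in KO cells and 18, 41, 19 and 68 UMIs in WT cells. The levels were 45.1, 166, 63.4 and 94.2 CPM in KO and 57.7, 104, 59.8 and 133 CPM in WT, overlapping throughout. The log2 fold change was 0.02 (SE 0.244, 95% interval -0.46 to 0.50, edgeR adjusted p = 0.995). Plate 351W gave a ratio of 1.60 and plate 353W one of 0.707, and without 351W the log2 fold change was -0.30. The ratio of summed CPM was 1.03 (0.802 to 1.33) over all plates and 1.39 in plates 350W and 351W alone.

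Nfe2l1, which encodes Nrf1, the activator of proteasome genes, had 9, 6, 7 and 9 UMIs in KO cells and 6, 9, 20 and 6 UMIs in WT cells. The mean was 28.8 ± 9.44 CPM in KO and 29.2 ± 23.0 CPM in WT (SD, n = 4 plates each), with a ratio of 1.02 (0.618 to 1.67). The highest value was that of WT cells of plate 352W, 63.0 CPM. The ratio was 1.32 in plates 350W and 351W alone.

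The small Maf genes encode partners that bind DNA but carry no activation domain of their own. Mafg had 4, 9, 1 and 14 UMIs in KO cells and 2, 17, 9 and 17 UMIs in WT cells, a ratio of 0.839 (0.504 to 1.38). Mafk differed more by plate than by genotype. It had 0, 1, 3 and 28 UMIs in KO cells and 0, 2, 2 and 32 UMIs in WT cells, so that 353W held nearly all of them. In that plate 23.8% of KO cells and 27.4% of WT cells had a Mafk UMI, and the KO over WT ratio there was 1.17 (0.678 to 2.00). In plate 350W, 0 of 92 KO cells and 0 of 95 WT cells had one, which allows up to 3.93% of KO cells and 3.81% of WT cells (upper ends of the exact 95% intervals). The related genes Nfe2l3 and Maff, outside the 7, had 9 and 5 UMIs in KO cells and 14 and 11 UMIs in WT cells, with ratios of 0.867 (0.331 to 2.15) and 0.613 (0.167 to 1.91). In plates 350W and 351W alone the ratios were 0.904 for Mafg, 0.661 for Mafk, 0.440 for Nfe2l3 and 0.755 for Maff, and without plate 350W that of Maff was 0.334. No interval was computed for these ratios, which rest on few UMIs. Nfe2l3 had 3 and 0 UMIs in KO and 5 and 4 in WT cells of 350W and 351W. Over the 4 plates Maff had 3, 1, 0 and 1 UMIs in KO and 3, 4, 3 and 1 in WT.

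**Figure D4:**
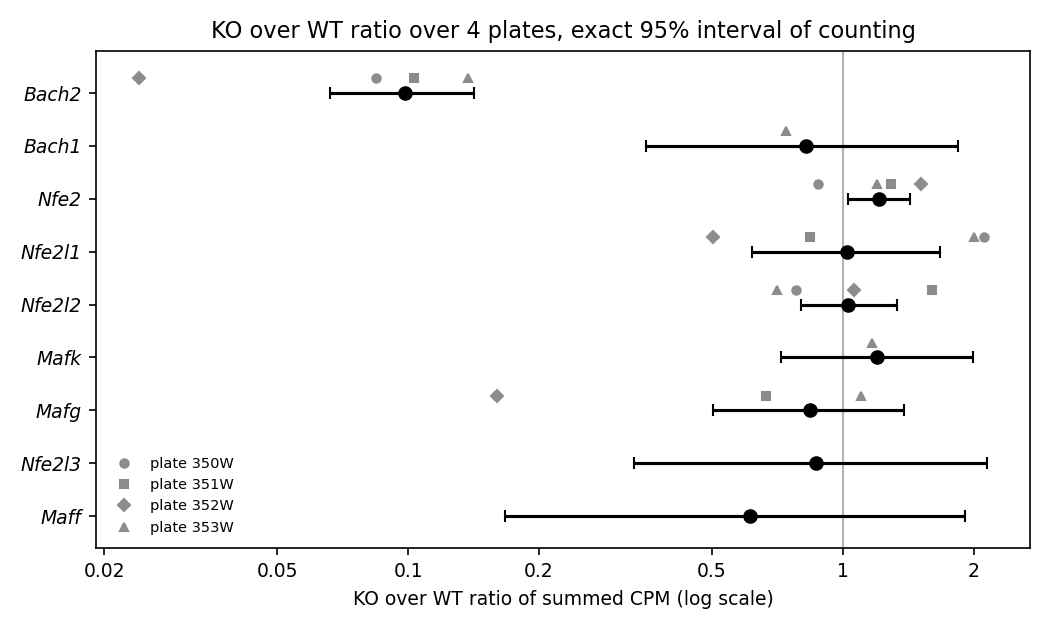
KO over WT ratio of summed CPM (horizontal axis, log scale) with its exact 95% interval of counting for the 7 genes and for Nfe2l3 and Maff, and grey marks for single plates with at least 10 UMIs in both genotypes together. Bach2, whose fall chose the members, is at 0.0986, and the intervals of the other genes include 1 except that of Nfe2, 1.03 to 1.43.

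Of the 7 genes, 3 passed the filter on low counts, Bach2 among them through WT cells, and nothing is read from its place in a contrast that chose it. Across all genes 6541 were tested, of which 4 were called lower in KO (0.0612%) and 2 higher (0.0306%) at an edgeR adjusted p under 0.05. Nfe2 and Nfe2l2 were not called. With no filter on genes, the other 4 members, Bach1, Nfe2l1, Mafk and Mafg, had log2 fold changes of -0.24, 0.13, 0.28 and -0.29 and an edgeR adjusted p of 0.992 each. KO values all below WT values were found for 54 of the genes tested (0.826%), and none of the other 6 members showed this. The share of cells with a UMI, after thinning, gave no adjusted p under 0.625 in two-sided exact sign-flip permutation tests for the 8 genes other than Bach2, a design in which the smallest possible p is 2 in 16. For Nfe2 and Nfe2l2 the intervals leave out a log2 fold change below -0.46, while the counting interval of Bach1 reaches down to a ratio of 0.352.

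By mean CPM, Bach2 ranked 1 among the 7 genes in WT cells and 4 in KO cells. These are counts of molecules tagged at one end and are not divided by length. In WT the order was Bach2 (278), Nfe2 (188), Nfe2l2 (88.7), Nfe2l1 (29.2), Mafg (27.8), Mafk (18.5) and Bach1 (10.9 CPM). In KO it was Nfe2 (222), Nfe2l2 (92.3), Nfe2l1 (28.8), Bach2 (25.4), Mafk (22.5), Mafg (22.0) and Bach1 (9.06 CPM). Neighbours in either order overlapped over the plates, except that Nfe2l2 in KO cells, at 45.1 CPM or more, lay above Nfe2l1, at 40.6 CPM or less. In the WT cells of plates 350W to 353W, Nfe2 had a UMI in 34.1, 41.0, 27.3 and 68.1% of Bach2-positive cells and in 39.2, 43.9, 12.3 and 70.8% of Bach2-negative cells. It was thus lower in the positive cells of 3 plates and higher in those of 352W. The positive cells were deeper in every plate, with medians of 3130, 3834, 3962 and 5140 UMIs against 3036, 3778, 2738 and 4318. The part of depth in these shares was not tested.

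Candidate binding sites were looked for in the promoters, because these factors are known to act on each other's genes through response elements. The core of the antioxidant response element, TGACNNNGC, and the shared AP-1 and NF-E2 core, TGAGTCA, were searched on both strands in the 250 bases before each start in the RefSeq promoters of GRCm38.p6. The cores can overlap, as in Prdx1. The table held 10 promoters of 6 members and none of Nfe2. The first core was in 3 of these 10, those of Nfe2l2, Mafk and Mafg, and in 10.2% of all 32851 promoters. The second was in 0 of 10 and in 4.46% of all. No promoter of Bach2 held either core in this window. The windows of the 3 members are shown with the match in capitals, read 5′ to 3′ on the strand of the gene. They lie at chr2:75704865-75704913 on the minus strand, chr5:139791493-139791535 on the plus strand and chr11:120633731-120633797 on the minus strand. In Mafk and Mafg the capitals are the reverse complement of the core. With them stand the windows of Prdx1, a peroxiredoxin gene (chr4:116685436-116685504, plus strand), and Sod1, a superoxide dismutase gene (chr16:90220676-90220744, plus strand), as examples from the antioxidant list below.
Nfe2l2: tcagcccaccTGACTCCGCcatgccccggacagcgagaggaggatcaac
Mafk: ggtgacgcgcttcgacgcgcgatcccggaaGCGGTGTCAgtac
Mafg: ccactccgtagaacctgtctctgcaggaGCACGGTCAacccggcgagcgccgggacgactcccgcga
Prdx1: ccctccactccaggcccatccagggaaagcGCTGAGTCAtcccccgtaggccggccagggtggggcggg
Sod1: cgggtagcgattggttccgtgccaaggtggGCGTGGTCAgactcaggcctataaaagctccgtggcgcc
In Prdx1 the capitals hold both cores. Of these 5 genes, the 3 that were tested had log2 fold changes of 0.02 (Nfe2l2), -0.11 (Prdx1) and 0.15 (Sod1), with edgeR adjusted p-values of 0.995, 0.969 and 0.838, and none was called. A match is a description of letters and no proof of binding.

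Genes that work with or under these factors were then read as 8 lists. They name 166 different genes, of which 86 were tested, and 0 of the 86 were called in either direction. List medians of the log2 fold change ran from -0.19 to 0.14, against -0.0041 over all genes tested. Some medians moved with the processing. In the thinned fit, which tested fewer genes, that of large Maf and AP-1 factors went from 0.01 to -0.67. That of heme synthesis and iron uptake, on 3 tested genes in the main fit, went from 0.14 to 0.81. The platelet list ran from -0.20 to 0.21 over the alternatives. At an unadjusted p below 0.05 (edgeR), 7 of the 86 (8.14%) were lower and 0 higher in KO, against 3.09% lower and 6.08% in either direction over all genes. KO values lay below all WT values for 4 of the 86 (4.65%), against the 0.826% over all genes given above. These were Psma6, Psmd14, Cebpb and Hbb-bt, named here after their values were seen.

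**Figure D5:**
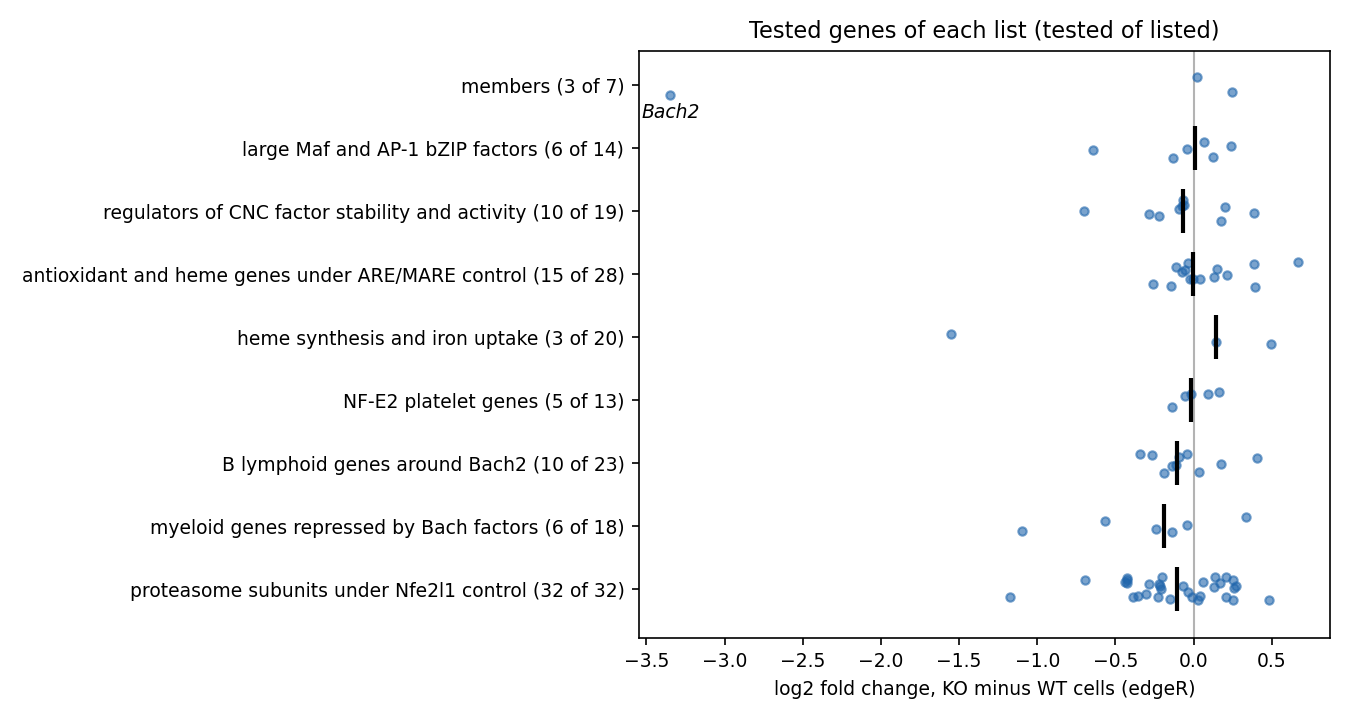
Log2 fold change, KO minus WT (horizontal axis), of the tested genes of each list, one point a gene, with the median of each of the 8 pathway lists as a black bar and tested of listed genes in brackets. Bach2 stands at -3.35, and the other points lie between -1.55 and 0.67.

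The antioxidant and heme genes under such elements, which BACH factors hold down, held no called gene. Of 28 listed, 15 were tested with a median of -0.00 and a range of -0.26 to 0.67. Sod1 averaged 906 ± 148 CPM in KO and 830 ± 207 CPM in WT, and the ferritin chain genes Fth1 and Ftl1, which store iron, 790 ± 259 and 603 ± 193 CPM in KO against 763 ± 208 and 611 ± 128 CPM in WT (SD, n = 4 plates each). Their log2 fold changes were 0.15, 0.04 and -0.02, none called.

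Regulators of these factors, among them the ligase parts that mark BACH and Nrf proteins for breakdown, had 10 of 19 tested and a median of -0.07. Fbxl17, a ligase subunit that takes up Bach1, had a log2 fold change of -0.09, the acetyltransferase gene Crebbp -0.29 and the ligase gene Rbx1 -0.07. Large Maf and AP-1 factors, which share the binding site, had 6 of 14 tested and a median of 0.01. Jun had 140, 102, 63.4 and 105 CPM in KO and 196, 150, 176 and 133 CPM in WT (log2 fold change -0.64, edgeR adjusted p = 0.603). It was lower in KO in 4 of 4 plates, but its groups overlapped. Fos and Junb, its partners, stood at -0.13 and -0.04.

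All 32 proteasome genes, targets of Nfe2l1, were tested, with a median of -0.11. The values ran from -1.17 to 0.48, and 19 of the 32 were lower in KO. The most abundant were Psma7, Psmb4 and Psmb6, at -0.23, -0.07 and 0.13. The lowest was Psma2, named after its values were seen (log2 fold change -1.17, edgeR adjusted p = 0.309). It had 49.6, 16.0, 40.8 and 44.5 CPM in KO and 77.0, 48.2, 129 and 90.1 CPM in WT, with overlap. The platelet list of Nfe2 had 5 of 13 tested and a median of -0.01, with Txn1 (thioredoxin) at -0.06 and Tbxas1 (thromboxane synthase) at 0.16. Heme synthesis and iron uptake had 3 of 20 tested. Alad and Urod, which encode enzymes of heme synthesis, stood at 0.49 and 0.14. One beta globin gene, Hbb-bt, had 9.02, 22.4, 13.6 and 15.7 CPM in KO and 35.3, 58.4, 59.8 and 35.2 CPM in WT, with no overlap (log2 fold change -1.55, edgeR adjusted p = 0.396). Another, Hbb-bs, was not tested and went the other way, also with no overlap but on few UMIs. It had 2, 2, 1 and 4 UMIs in KO (4.53 to 10.5 CPM) and 0, 1, 0 and 2 UMIs in WT (0 to 3.92 CPM). The alpha globin genes Hba-a1 and Hba-a2 had at most 2 UMIs in any sum. Of 11 erythroid markers 3 were tested, Hbb-bt among them, and none was called. Their summed level, 471 to 1110 CPM in KO and 454 to 1058 CPM in WT, was mostly Car2, with 421 to 1015 CPM in KO and 345 to 997 CPM in WT.

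In B cell development Bach2 acts beside the genes of the lymphoid list, of which 10 of 23 were tested with a median of -0.10. Lmo2, a stem cell and lymphoid factor, stood at -0.19, Dntt, the nucleotide-adding enzyme of antigen receptor joining, at 0.41, and the cytokine receptor gene Flt3 at -0.11. Dntt had 27.1, 16.0, 190 and 429 CPM in KO and 9.62, 12.7, 88.1 and 421 CPM in WT, higher in KO in 4 of 4 plates but not called (edgeR adjusted p = 0.838). Flt3 differed more by plate than by genotype. It had 367 and 154 CPM in KO and 368 and 170 CPM in WT cells of 352W and 353W, and at most 18.0 CPM in KO and 30.4 CPM in WT cells of the other plates. The myeloid genes that BACH factors repress had 6 of 18 tested and a median of -0.19. Cd74, the invariant chain of antigen presentation, had 284, 198, 109 and 212 CPM in KO and 391, 244, 205 and 347 CPM in WT (log2 fold change -0.57, edgeR adjusted p = 0.323). The granule enzyme genes Prtn3 and Mpo stood at -0.05 and -0.14. Cebpb, a myeloid factor gene singled out after its values were seen, had 13.5 to 32.0 CPM in KO and 38.5 to 55.8 CPM in WT (log2 fold change -1.09, edgeR adjusted p = 0.653).

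Since B cells express Bach2, markers of the B lineage were set beside it. Of 14 B and plasma cell markers, 2 had 0 UMIs in every plate and genotype, Cd22 among them. Cd79a, a part of the B cell receptor, had 1 UMI in KO and 4 UMIs in WT cells. Its partner Cd79b had 43 UMIs in KO and 51 in WT, and the early B factor gene Ebf1 32 in KO and 51 in WT. Blnk had 13 in KO and 19 in WT and Ms4a1 8 in KO and 25 in WT. These counts are not scaled, and over all genes the kept cells held 1137460 UMIs in KO and 1534485 in WT. The part of B cells in the Bach2 counts was not tested. The summed level of the list was 54.1 to 9582 CPM in KO and 103 to 13469 CPM in WT. Nearly all of it was immunoglobulin RNA in 352W and 353W, where 3 KO and 5 WT wells held over 100 immunoglobulin UMIs. Ighm, the heavy chain gene of IgM, was called lower in KO (log2 fold change -1.10, edgeR adjusted p = 0.0246). In plates 350W and 351W both genotypes had little or none, with 0 and 0 UMIs in KO and 4 and 0 UMIs in WT cells. Without these wells the log2 fold change of Ighm was -0.08 (edgeR adjusted p = 0.993) and that of Bach2 was -3.34. At least 1 UMI of 10 B lineage genes other than the immunoglobulins was found in 9 of 26 Bach2-positive KO cells and 53 of 152 Bach2-positive WT cells. Among Bach2-negative cells it was found in 64 of 309 for KO and 63 of 229 for WT. Depth differed: the median was 3886 UMIs in positive and 3446 in negative WT cells. In KO cells of 350W to 353W the medians were 3236, 4472, 2092 and 6084 UMIs against 2219, 3007, 2584 and 4325. The shares pool the plates without thinning, and the part of depth in them was not tested. Markers of T and NK cells summed to 104 to 196 CPM in KO and 124 to 204 CPM in WT. Megakaryocyte markers summed to 109 to 668 CPM in KO and 63.0 to 776 CPM in WT, and neutrophil and monocyte markers to 284 to 691 CPM in KO and 292 to 727 CPM in WT.

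Genes next to Bach2 were looked at for their own values. Bach2 lies at chr4:32238413-32586109 (GRCm38.p6). The tables held 20 other genes within 1 Mb of it, of which 6 were tested and 0 called, where 6 of 6541 genes were called in all. Casp8ap2, the nearest tested gene, stood at -0.28 on the log2 scale, Mdn1 at -0.02, Ankrd6 at -0.24, Gm11942 at -0.35 (SE 0.0825, edgeR adjusted p = 0.277), Pnrc1 at 0.25 and Rngtt at 0.09. Among those not tested, Ube2j1 had 16 UMIs in KO and 43 in WT, and Lyrm2 13 in KO and 35 in WT, both named after their values were seen. Scaled to the UMI totals, which were lower in KO, Ube2j1 averaged 13.4 CPM in KO and 27.1 CPM in WT. Lyrm2 averaged 9.45 CPM in KO and 19.2 CPM in WT. Others not tested went the other way, also on few UMIs. Gm11927 averaged 12.9 CPM in KO and 4.95 CPM in WT, and Rragd 18.0 CPM in KO and 12.3 CPM in WT. Bach2os, a gene inside the Bach2 span whose name marks it as an opposite strand transcript, had 1 UMI in KO and 3 UMIs in WT. The counting is not stated to use strand, so reads of such a pair cannot be told apart.

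Likeness to Bach2 was measured by Pearson's r of log2(CPM + 10) over the 8 sums of 4 plates and 2 genotypes, among 5616 tested genes with 100 or more UMIs. The nearest were 4930447C04Rik (0.92), Smpd4 (0.91), Wwc2 (0.91), Ccdc90b (0.90) and Lix1 (0.90). The highest of very many correlations over 8 points is a description, and the points share plates and libraries. Lix1 had 31.6, 22.4, 18.1 and 18.3 CPM in KO and 73.7, 60.9, 34.6 and 45.0 CPM in WT (log2 fold change -1.24, edgeR adjusted p = 0.454), and none of the 5 was called. Nfe2l2 and Nfe2 were at 0.07 and 0.06. Bach2 varied over the 8 sums mostly between genotypes, with means of 25.4 CPM in KO and 278 CPM in WT. An r with Bach2 therefore largely repeats the KO and WT contrast and adds little to the fold changes.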

How the data were processed

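The authors deposited 1 table of raw UMI counts per plate, with genes in rows and cells in columns. The submitters' processing notes name GRCm38.p4 and FastQC, while no aligner or counter is given in the sources used here. The ChIP-seq region lists were not used, since they are on mm9 and no annotation of that build was at hand. Of 25832 gene IDs, 25714 had a symbol in the reference tables.

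Cells with 500 or more UMIs were kept, without doublet calling, and summed per plate and genotype prefix. Sums were tested with edgeR 4.0.16 in R 4.3.3 (filterByExpr, TMM, quasi-likelihood test, plate as a block, Benjamini-Hochberg adjustment over all genes, threshold 0.05), which was tested on simulated data. DESeq2 1.42.0 was an alternative. The block rests on the shared plate: deviations of the KO and WT sums of one plate correlated at 0.57 to 0.66 over tested genes. Exact intervals at 95% (Poisson, Clopper-Pearson, conditional binomial) used Python 3.11.15 and scipy 1.17.1 and cover counting error only. Intervals of log2 fold changes are normal, from the standard error. Named were the 7 members, Nfe2l3, Maff, called genes of each list and its 3 most abundant tested genes, and the 5 genes most like Bach2. Members, lists and tests were chosen with earlier results of these data known. Cd48 and the fit of plates 350W and 351W alone were added after the data were seen. Some genes that the rule would name are not reported here.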

Additional observations from a re-analysis of the deposited data

Results flagged for a closer look

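Within a group of 4 plates, 4 of 36 sets of values held a plate far from the other 3, and that plate was 353W in each. A rate of about 1 in 20 would hold for independent sets. These sets share genes and plates, as CPM and share of cells in both genotypes, so no comparison with chance is drawn. Mafk was high there, with a UMI in 23.8% of KO cells and 27.4% of WT cells and a level of 62.6 CPM in WT cells. Maff was low in WT cells of 353W, with 1.96 CPM from a single UMI. Plate 353W also had the highest UMI totals in both genotypes, and the part of depth in these values was not tested.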

How the results depend on the processing

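The count of called genes moved with the processing while the members' values mostly did not. It was 6 with plate as a block and 0 without the replicate block (398 and 86 genes had an unadjusted p below 0.05), 1 with DESeq2 (63), 26 with no filter on genes, 3 with no filter on cells, 2 without the wells rich in immunoglobulin, 1 after thinning and 1 in plates 350W and 351W alone. Leaving out 1 plate gave 2 to 12 called genes, 12 without 352W and 2 without 353W. No fit called a gene of the 8 pathway lists or a member other than Bach2, but most tested only Nfe2 and Nfe2l2 of these 6, and the fit without the block called nothing at all. All 6 were tested only with no filter on genes. The log2 fold change of Bach2 ran from -3.63 to -3.17 and was -3.40 without the replicate block. Nfe2 stayed between 0.15 and 0.38. Nfe2l2 gave -0.30 to 0.34, with the leave-one-out range at -0.30 (without 351W) to 0.27, and its ratio 0.790 to 1.32 when 1 plate was left out and 1.39 in 350W and 351W alone, where that of Mafk was 0.661 on 3 UMIs. The causes were not tested. Of 387 alternatives in all, 357 stayed within a limit set for the kind of value, such as the 95% interval of a main ratio. Such limits allow a change of direction. The Nfe2 share went from -1.99 to 3.46 percentage points without 350W, and the Bach1 ratio from 0.824 to 1.06 in 350W and 351W alone. The thinned fit could test fewer genes, Nfe2l2 not among them. Bach1, Nfe2l1, Mafk and Mafg rest on 29 to 73 UMIs each, which limits what can be said of them.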
